A study of Mus musculus with 9 samples.

Results

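Gene expression after ischemia and reperfusion was compared with sham surgery in the cerebral cortex of wild-type mice, across all genes expressed highly enough to test. The ischemic mice (IR_WT, 3 libraries) were wild type and had tMCAO, a transient occlusion of the middle cerebral artery, with ischemia of 60 min and reperfusion of 1 day. Their tissue is labelled as the peri-infarct area, the rim of cortex around the infarct. The mice they are set against (sham_WT, 3 libraries) were wild type, had sham surgery and gave tissue labelled only as cerebral cortex. Surgery and dissected region thus differ together between the groups, and their shares in a difference cannot be told apart. These are 6 of the 9 libraries of a study of Matn3, which encodes the matrix protein matrilin-3. The other 3, from Matn3 knockout mice with the same ischemia and reperfusion (IR_Matn3_ko), entered only the estimate of the spread between replicates. The design text gives 3 mice per group, and the sources used here name neither strain nor age. A gene was tested when at least 3 of the 9 libraries reached 0.5 FPKM (fragments relative to gene length and to all mapped fragments), which held for 17247 of the 37893 genes listed. A gene silent in sham_WT could pass this filter through its level after ischemia.

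A blocked artery deprives neurons of oxygen and glucose, their ion gradients run down, and calcium and glutamate rise outside their normal bounds. Cells in the infarct core die early, whereas those in the rim survive with stressed metabolism, and returning blood adds an oxidative load. Molecules released by dying cells are read by Toll-like and scavenger receptors of microglia, which with blood-borne monocytes clear the debris. Astrocytes of the rim become reactive, and the transcription factors AP-1, NF-kB, C/EBP and STAT3 link these signals to new transcription.

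Total counts lay between 58144816 and 68370527 in IR_WT and between 53400376 and 56872126 in sham_WT, and a count of 0 allowed up to 0.0562 CPM (counts scaled by library size) at the lowest depth, a limit of counting error only. The markers fixed for cerebral cortex were present in all 6 libraries, and none of the 8 was called different between the groups. Slc17a7, the vesicular glutamate transporter of cortical excitatory neurons, stood at 153, 181 and 224 FPKM in IR_WT, against 178, 193 and 187 FPKM in sham_WT. Transcripts of other tissues divided the libraries in a way that followed the groups in part. Summed over 19 small intestine markers they reached 24.9, 614 and 402 CPM in IR_WT 1, 2 and 3, against 16.1, 16.5 and 17.5 CPM in sham_WT. All 19 were higher in IR_WT 2 and 3 than in the other 4 libraries, and 9 to 11 of the 19 were at 0 in those 4. Summed B cell and lymphoid markers ran the other way, at 213, 28.5 and 18.5 CPM in IR_WT, against 220, 313 and 277 CPM in sham_WT, with 12 of 12 lower in IR_WT 2 and 3. Summed cartilage markers stood at 397, 90.1 and 91.2 CPM in IR_WT, against 142, 443 and 429 CPM in sham_WT, and summed markers of the meninges at 162, 64.3 and 81.01 CPM in IR_WT, against 45.7, 169 and 173 CPM in sham_WT. For these 2 lists sham_WT 1 stood with IR_WT 2 and 3, whereas for the intestine and B cell lists IR_WT 1 stood with sham_WT. Each result was therefore also computed with a term (the library set term) for libraries above 100 CPM of intestine markers, which among these 6 are IR_WT 2 and 3, and there the difference rests on IR_WT 1. Of 18 tested intestine markers 7 were called higher in IR_WT (18 without IR_WT 1), and none under the library set term. That last result was largely fixed in advance, since the same markers define the term.

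**Figure D1:**
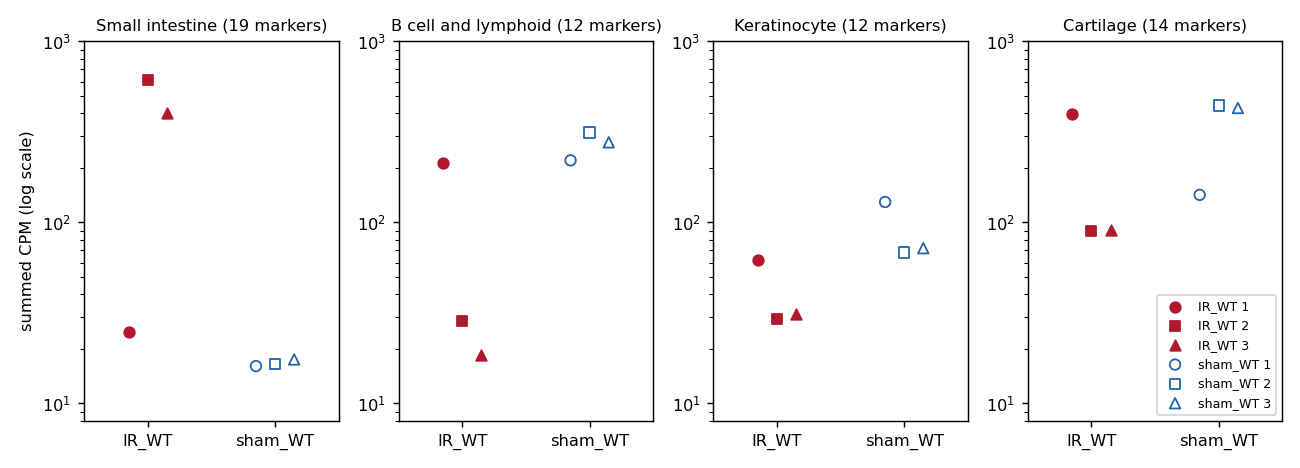
Summed CPM (log scale, relative to library totals) of markers of 4 tissues other than brain, in each of the 3 IR_WT libraries and the 3 sham_WT libraries, 1 point per library. Small intestine markers stand at 614 and 402 CPM in IR_WT 2 and 3 and at 24.9 CPM or below in the other 4 libraries, while B cell and lymphoid markers are lowest in IR_WT 2 and 3.

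After 1 day of reperfusion more genes were called higher than lower, and the higher ones by larger folds. At an adjusted p under 0.05 (edgeR's quasi-likelihood test with Benjamini-Hochberg adjustment over the 17247 genes), 701 genes were called different, 4.06% of those tested. Of these, 438 were higher in IR_WT (2.54%) and 263 lower (1.52%). The higher genes had a median change of 2.51-fold, with 284 at 2-fold or more and 134 at 4-fold or more. These counts include 7 intestine markers, among them Lyz1, Sis, Cdh17 and Vil1, each at 4-fold or more. Other called genes that followed the intestine markers by library were not removed either. The lower genes had a median change of 1.55-fold, with 47 at 2-fold or more and 1 at 4-fold or more. In bulk tissue, fewer cells of a type and less RNA per cell cannot be told apart. The 3 libraries of one group lay wholly above those of the other for 25.6% of all genes tested. The higher share of the calls was 62.5%, and it was 79.2% with no scaling factors (591 higher and 155 lower) and 75.7% by limma on log2(FPKM + 1). The total was 398 without IR_WT 2, 242 without sham_WT 1, 315 without sham_WT 2 and 366 without sham_WT 3. Of the 438 higher genes 164 were called whichever library was left out, and of the 263 lower genes 48 were. Without IR_WT 1 the lower calls were 445, and without IR_WT 3 they were 165. The library set term left 407 calls (2.36%), 293 higher (1.7%) and 114 lower (0.661%), of which 305 were among the 701. With that term 241 of the 438 higher genes and 64 of the 263 lower genes kept their call. The direction was kept by 435 higher genes and all 263 lower genes, which was largely fixed in advance. With the term the difference rests on IR_WT 1, and the groups already did not overlap for 432 of the higher and 263 of the lower genes.

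**Figure D2:**
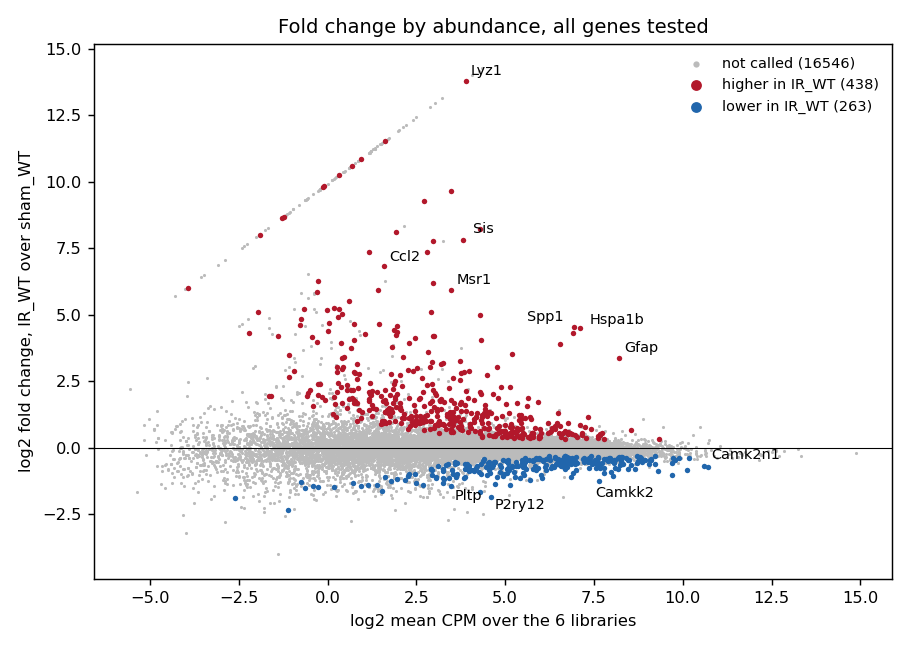
Log2 fold change of IR_WT over sham_WT against log2 mean CPM over the 6 libraries for the 17247 genes tested, 1 point per gene, coloured by call. Called higher genes spread upward at low and middle abundance, called lower genes lie in a narrow band just under 0 at high abundance, and the diagonal of points at the upper left holds genes with no count in sham_WT, whose fitted fold is no measure of size.

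The direction of the calls differed with how abundant a gene was. The part in this pattern of the scaling, and of the filter that a gene silent in sham_WT could pass, was not tested. Among the 3040 genes with a mean of 3 to 10 CPM, 122 were higher in IR_WT and 21 lower, with median changes of 2.86-fold and 2.13-fold. Between 30 and 100 CPM the numbers were nearly equal, at 76 higher and 72 lower of 4307. Among the 470 genes above 300 CPM, 2 were higher and 36 lower, at median changes of 1.39-fold and 1.40-fold. Summed over all called higher genes, the level was 16110, 15268 and 14901 CPM in IR_WT, against 7684, 8199 and 8321 CPM in sham_WT. The called lower genes summed to 31040, 31806 and 32523 CPM in IR_WT, against 48369, 48683 and 45818 CPM in sham_WT. Both sums were over genes chosen by the test, so they describe its size and are no further evidence. Within IR_WT the first library was often the most extreme: of the 438 higher genes it held the highest value in 209, IR_WT 2 in 118 and IR_WT 3 in 111. Protein-coding genes were called in 4.76% of 13844 cases, long noncoding genes in 2.48% of 1369 and pseudogenes in 0.336% of 1190.

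**Figure D3:**
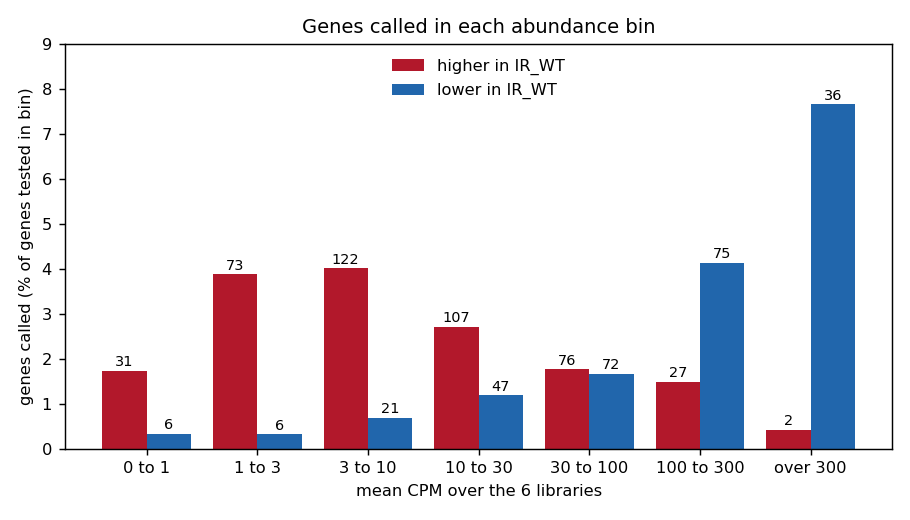
Percentage of genes called higher and lower in IR_WT within each bin of mean CPM over the 6 libraries, with the number of genes over each bar. Higher calls are the more frequent ones up to 30 CPM, both directions are about equal from 30 to 100 CPM, and above 300 CPM there are 36 lower calls and 2 higher.

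CPM values are given below in the order of libraries 1, 2 and 3 of each group, scaled by edgeR's TMM factors, and coordinates are those of the deposited table (GRCm38). A named gene without a further remark was called whichever 1 of the 6 libraries was left out and also under the library set term. Called genes were named by rule only where the groups did not overlap, so remarks on that describe the choice and are no further support. The shares of each gene list that were called are set beside those of all genes tested, of which 2.54% were called higher and 1.52% lower. The lists were chosen with earlier results of these data known, so their shares describe the calls and are no independent support. The shares of all genes are also not matched to a list for abundance. The 15 largest increases and 15 largest decreases were taken among called genes with a mean of at least 5 CPM in the higher group, no overlap, and a call also under the library set term. Several called genes outside those limits changed more. A2m, the broad protease inhibitor alpha-2-macroglobulin (chromosome 6, 121635376 to 121679227), had 40.9, 28.7 and 44.1 CPM in IR_WT, against 1.21, 0.963 and 1.38 CPM in sham_WT. It was 32.02-fold higher (log2 fold change 5.00, SE 0.37, edgeR adjusted p = 0.00016) with no overlap between the groups. Gpr84, a receptor for medium-chain fatty acids on activated myeloid cells (chromosome 15, 103308235 to 103310612), stood at 10.9, 8.02 and 8.63 CPM in IR_WT, against 0.515, 0.556 and 0.717 CPM in sham_WT. All 3 ischemic libraries lay far above all 3 sham libraries, 15.3-fold higher (log2 fold change 3.94, SE 0.20, edgeR adjusted p = 3.13e-05). C5ar1, the receptor for the complement fragment C5a (chromosome 7, 16246743 to 16259540), had 12.3, 10.01 and 8.74 CPM in IR_WT, against 0.238, 0.611 and 0.925 CPM in sham_WT. The groups did not overlap, and the gene was 17.4-fold higher (log2 fold change 4.12, SE 0.36, edgeR adjusted p = 0.000394). Ch25h makes 25-hydroxycholesterol, an oxysterol released by activated macrophages (chromosome 19, 34473778 to 34475164), and had 9.38, 6.79 and 6.18 CPM in IR_WT, against 0.159, 0.278 and 0.491 CPM in sham_WT. Its lowest ischemic library was still above every sham library, and it was 23.9-fold higher (log2 fold change 4.58, SE 0.35, edgeR adjusted p = 0.000185). The other increases among these 15 were those of Ccl2, Mmp12, Msr1, Ccl12, Il11, Spp1, Hspa1b, Tgm1, Hspa1a, Lcn2 and Serpina3n, from 112-fold for the chemokine Ccl2 down to 14.7-fold for the protease inhibitor Serpina3n. Il11, a cytokine of the interleukin-6 family, lost its call without sham_WT 3 (edgeR adjusted p = 0.0697), and Hspa1b without sham_WT 1 (edgeR adjusted p = 0.056). Reads can be split between Hspa1a and Hspa1b, near-identical copies of the inducible HSP70 gene, so their separate values are uncertain.

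The 15 largest decreases within the same limits were all smaller than these 15 increases. Camkk2, the kinase that activates CaM kinases I and IV and AMPK (chromosome 5, 122731170 to 122779409), had 157, 169 and 184 CPM in IR_WT, against 359.8, 356 and 344 CPM in sham_WT. The groups were wide apart, and it was 2.08-fold lower (log2 fold change -1.06, SE 0.11, edgeR adjusted p = 0.00112). Fxyd7, a small regulator of the sodium pump in brain (chromosome 7, 31042513 to 31051467), had 17.3, 22.04 and 24.4 CPM in IR_WT, against 42.1, 40.9 and 42.6 CPM in sham_WT, without overlap, and was 1.97-fold lower (log2 fold change -0.98, SE 0.12, edgeR adjusted p = 0.00259). Hs3st4, which adds 3-O-sulfate to heparan sulfate, had 25.4, 32.2 and 21.6 CPM in IR_WT, against 63.6, 55.8 and 57.8 CPM in sham_WT. Every ischemic library lay below every sham library, and it was 2.24-fold lower (log2 fold change -1.16, SE 0.16, edgeR adjusted p = 0.00397). Pltp, the phospholipid transfer protein, had 11.1, 17.3 and 15.4 CPM in IR_WT, against 31.8, 41.8 and 38.9 CPM in sham_WT, again without overlap, and was 2.57-fold lower (log2 fold change -1.36, SE 0.22, edgeR adjusted p = 0.0102). Col5a1, a chain of type V collagen, had 48.8, 33.1 and 39.98 CPM in IR_WT, against 93.4, 88.2 and 91.2 CPM in sham_WT. It too did not overlap and was 2.24-fold lower (log2 fold change -1.16, SE 0.13, edgeR adjusted p = 0.00112).

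Among the remaining decreases, genes of oligodendrocytes and of microglia stood beside neuronal ones. Gjc3, connexin 29 of myelinating glia, had 30.6, 31.3 and 30.9 CPM in IR_WT, against 60.5, 69.6 and 49.7 CPM in sham_WT. The 3 ischemic libraries were within 1 CPM of each other and below all sham libraries, and Gjc3 was 1.94-fold lower (log2 fold change -0.96, SE 0.11, edgeR adjusted p = 0.002). Pllp, the myelin membrane protein plasmolipin, had 13.1, 15.9 and 15.5 CPM in IR_WT, against 29.2, 33.1 and 28.7 CPM in sham_WT, 2.04-fold lower (log2 fold change -1.03, SE 0.14, edgeR adjusted p = 0.00447). P2ry12, a nucleotide receptor of surveying microglia, had 15.1, 20.7 and 20.9 CPM in IR_WT, against 54.9, 50.4 and 46.9 CPM in sham_WT, and Pcp4, a calmodulin regulator of deep-layer and other neurons, had 64.6, 96.3 and 83.99 CPM in IR_WT, against 159.5, 161 and 151 CPM in sham_WT. Neither overlapped, at 2.68-fold and 1.93-fold lower (edgeR adjusted p = 0.00139 and 0.00907). Also among the 15 were Slc19a3, a thiamine transporter (2.32-fold lower), Ppp1r3g, a glycogen-targeting phosphatase subunit (2.27-fold), Cd33, a sialic acid receptor of microglia (1.98-fold), Diras2, a small GTPase (1.88-fold), and Nrep (1.799-fold). Their calls were lost in some refits: Slc19a3 without sham_WT 1 or sham_WT 2 (edgeR adjusted p up to 0.0777), Ppp1r3g without sham_WT 1 or sham_WT 2 (edgeR adjusted p up to 0.0709), Cd33 without IR_WT 2, IR_WT 3, sham_WT 1, sham_WT 2 or sham_WT 3 (edgeR adjusted p up to 0.165), Diras2 without IR_WT 2, sham_WT 1 or sham_WT 2 (edgeR adjusted p up to 0.0732) and Nrep without IR_WT 1, IR_WT 2, sham_WT 1, sham_WT 2 or sham_WT 3 (edgeR adjusted p up to 0.169).

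**Figure D4:**
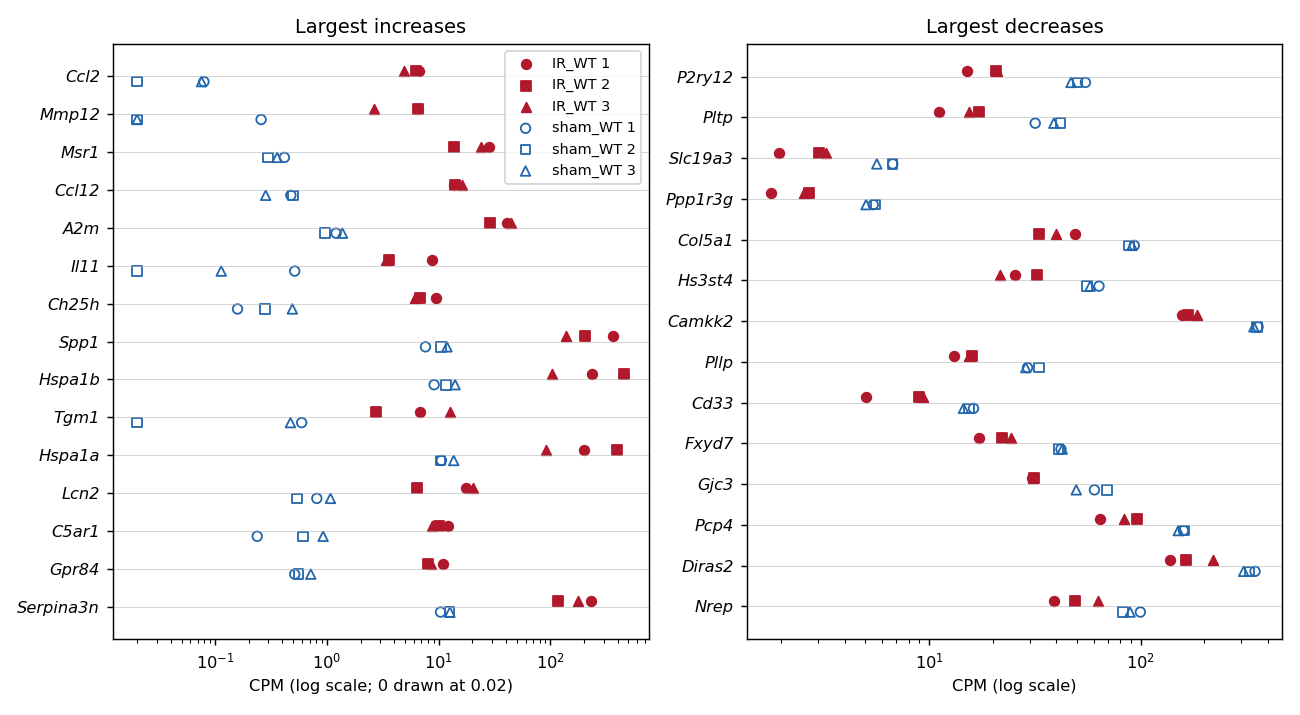
CPM (log scale) of the 15 genes with the largest increase and of 14 of the 15 with the largest decrease among called genes of at least 5 CPM in the higher group that were also called under the library set term. Each point is 1 library, with filled symbols for IR_WT and open symbols for sham_WT. Genes were also chosen for having no overlap between the 2 groups, and the increases run from 14.7-fold to 112-fold where the decreases run from 1.799-fold to 2.68-fold.

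Cytokine and growth factor receptors were among the genes that were higher. Osmr, the receptor subunit for oncostatin M, which signals to STAT3 (chromosome 15, 6813577 to 6874969), had 42.5, 40.2 and 34.1 CPM in IR_WT, against 5.25, 7.35 and 5.002 CPM in sham_WT. It was 6.63-fold higher (log2 fold change 2.73, SE 0.26, edgeR adjusted p = 0.000593) without overlap. Tnfrsf1a, the main receptor for tumor necrosis factor (chromosome 6, 125349362 to 125361874), had 37.8, 24.4 and 32.3 CPM in IR_WT, against 6.22, 9.63 and 6.61 CPM in sham_WT. Here too the groups were apart, and it was 4.204-fold higher (log2 fold change 2.07, SE 0.20, edgeR adjusted p = 0.000611). In the list of 28 such receptors 5 were called higher (17.9%) and 1 lower (7 and 0 under the library set term), and the list median was 0.20 on the log2 scale, against 0.00 over all genes tested. The other higher ones were Il13ra1, a receptor chain for interleukins 13 and 4 (2.73-fold), Il1r1, the interleukin-1 receptor (2.801-fold), whose call was lost without IR_WT 3, sham_WT 1, sham_WT 2 or sham_WT 3 (edgeR adjusted p up to 0.111), and Il4ra, the interleukin-4 receptor (2.49-fold, named after its values were seen), lost without sham_WT 1 or sham_WT 2 (edgeR adjusted p up to 0.0732). Without sham_WT 1 or sham_WT 2 the higher calls were 3. The lower one was Fgfr2, a fibroblast growth factor receptor, at 24.97, 29.9 and 25.01 CPM in IR_WT, against 36.8, 49.4 and 34.8 CPM in sham_WT. It was lost without any 1 of the 6 libraries (edgeR adjusted p up to 0.123) and under the library set term (edgeR adjusted p = 0.139), and its annotated span overlaps many other genes.

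The promoters of called genes were searched, in either orientation, for the letters TGANTCA (a core recognized by AP-1), TTCNNNGAA (by STAT factors), TGACGTCA (the full cAMP response element), GAANNTTC (a core of heat shock elements) and TATAAA. Each promoter runs from 250 bases before to 50 after a start site listed by RefSeq (GRCm38.p6), and 543 of the 701 called genes matched an entry. TGANTCA occurred in 46 of 339 promoters of called higher genes (13.6%) and in 10 of 204 of called lower genes (4.90%). It occurred in 4.99% of 11564 promoters of all genes tested, in 7.93% of all 27025 promoters, and in 22 of the 100 promoters of genes higher at least 4-fold (22.0%). TTCNNNGAA occurred in 10.9% of the higher, 7.35% of the lower and 6.75% of all tested promoters (8.47% of all 27025). TGACGTCA had the opposite order, in 0.590% of the higher, 5.39% of the lower and 3.11% of all tested promoters (1.88% of all 27025). TATAAA was found in 11.5% of the higher, 4.90% of the lower and 7.53% of all tested promoters (14.2% of all 27025), and GAANNTTC in 5.60%, 2.45% and 5.63% (7.95% of all 27025). In promoters of genes higher at least 4-fold, TTCNNNGAA stood at 15.0%, TATAAA at 20.0%, GAANNTTC at 5.0% and TGACGTCA at 1.0%. The median GC content was 57.0% in higher (53.8% for those of at least 4-fold), 63.0% in lower and 60.7% in all tested promoters, so base composition differed along with the motifs. Called genes that followed the intestine markers were not removed from these sets. These shares describe letters in a window and are no test of binding.

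The promoters of 5 genes are printed to show such matches in genes that were higher in IR_WT, 5′ to 3′ on the strand of the gene, with the matches in capitals. The Osmr window (chr15:6874264-6874563, minus strand) and the Cd68 window (chr11:69666121-69666420, minus strand) hold TGANTCA, 1 and 2 times. The Emp1 window (chr6:135362681-135362980, plus strand) holds both motifs 2 times, and in its last match they overlap, so that the capitals run on. The Gfap window (chr11:102897151-102897450, minus strand) and the Tnfrsf1a window (chr6:125349473-125349772, plus strand) hold TTCNNNGAA 1 time each.
Osmr: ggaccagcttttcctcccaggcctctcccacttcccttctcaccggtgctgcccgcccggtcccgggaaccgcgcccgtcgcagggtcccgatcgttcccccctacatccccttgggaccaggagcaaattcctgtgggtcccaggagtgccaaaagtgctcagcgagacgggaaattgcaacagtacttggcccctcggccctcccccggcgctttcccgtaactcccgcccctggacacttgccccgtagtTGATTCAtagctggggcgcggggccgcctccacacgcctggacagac
Cd68: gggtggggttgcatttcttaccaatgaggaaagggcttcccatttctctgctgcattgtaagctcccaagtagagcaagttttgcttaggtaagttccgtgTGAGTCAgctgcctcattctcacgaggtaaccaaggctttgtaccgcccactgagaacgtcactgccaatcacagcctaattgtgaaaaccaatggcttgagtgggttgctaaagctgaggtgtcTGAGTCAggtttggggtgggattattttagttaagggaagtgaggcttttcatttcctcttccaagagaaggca
Emp1: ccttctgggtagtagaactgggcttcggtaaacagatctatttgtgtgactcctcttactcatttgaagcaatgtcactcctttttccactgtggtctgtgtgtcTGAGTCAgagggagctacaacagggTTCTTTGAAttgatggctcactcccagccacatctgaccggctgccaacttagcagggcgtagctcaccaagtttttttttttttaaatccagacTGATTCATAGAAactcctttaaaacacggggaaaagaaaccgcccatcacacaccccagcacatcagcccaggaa
Gfap: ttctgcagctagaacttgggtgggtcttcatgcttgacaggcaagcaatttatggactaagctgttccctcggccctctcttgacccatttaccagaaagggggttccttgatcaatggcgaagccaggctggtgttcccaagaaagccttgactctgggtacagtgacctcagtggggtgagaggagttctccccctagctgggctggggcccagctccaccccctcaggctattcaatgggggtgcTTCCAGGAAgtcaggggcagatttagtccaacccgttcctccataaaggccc
Tnfrsf1a: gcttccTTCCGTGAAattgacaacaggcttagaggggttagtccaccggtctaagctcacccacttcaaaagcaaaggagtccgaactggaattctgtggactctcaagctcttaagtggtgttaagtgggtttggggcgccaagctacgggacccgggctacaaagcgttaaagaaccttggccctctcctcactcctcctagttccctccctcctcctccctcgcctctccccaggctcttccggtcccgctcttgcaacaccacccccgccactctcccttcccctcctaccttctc
Cd68 encodes a lysosomal membrane protein of phagocytes, Gfap the intermediate filament of reactive astrocytes, and Emp1 an epithelial membrane protein. Gfap had 592, 459.6 and 564 CPM in IR_WT, against 35.9, 70.05 and 49.1 CPM in sham_WT, 10.4-fold higher (log2 fold change 3.38, SE 0.28, edgeR adjusted p = 0.000326). Emp1, named after its values were seen, had 24.8, 10.3 and 12.8 CPM in IR_WT, against 5.57, 7.31 and 6.76 CPM in sham_WT. It did not overlap between the groups but was highest in IR_WT 1, and it was 2.44-fold higher (log2 fold change 1.29, SE 0.30, edgeR adjusted p = 0.0459), a call lost without IR_WT 3, sham_WT 1, sham_WT 2 or sham_WT 3 (edgeR adjusted p up to 0.176).

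Several transcription factors of the injury response were called higher, whereas none of the 21 listed neuronal activity-dependent genes was in the main fit. Of 11 tested AP-1 and ATF genes 4 were called higher and none lower (2 higher without sham_WT 1 or sham_WT 3), against 2.54% of all genes called higher, and the list median was 0.52 on the log2 scale. Atf3, a stress-induced partner of AP-1 and a marker of injured neurons (chromosome 1, 191170296 to 191218039), had 18.3, 12.2 and 8.601 CPM in IR_WT, against 1.15, 1.09 and 1 CPM in sham_WT. All ischemic libraries lay above the sham libraries, and it was 12.1-fold higher (log2 fold change 3.59, SE 0.28, edgeR adjusted p = 0.000202). Maff and Mafk, small Maf proteins that pair with AP-1 and NRF2 factors, were 3.44-fold and 1.53-fold higher, and Fosl1, an AP-1 subunit, 4.19-fold. The call of Mafk was lost without IR_WT 3, sham_WT 1, sham_WT 2 or sham_WT 3 (edgeR adjusted p up to 0.0803) and that of Fosl1 without sham_WT 1 or sham_WT 3 (edgeR adjusted p up to 0.118). The classical subunit Fos, named after its values were seen, had 21.4, 23.5 and 27.6 CPM in IR_WT, against 15.4, 36.4 and 7.49 CPM in sham_WT. Sham_WT 2 was the highest of the 6 and sham_WT 3 the lowest, so the groups overlapped. Junb, chosen likewise, had 39.8, 37.5 and 50.1 CPM in IR_WT, against 29.2, 54.5 and 17.3 CPM in sham_WT and overlapped in the same way (edgeR adjusted p = 0.763 for Fos and 0.62 for Junb).

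Of 21 neuronal activity-dependent genes 1 was called lower and none higher, and the list median was -0.55 on the log2 scale, with 17 of 21 genes below 0. Under the library set term or with no scaling factors 1 was called higher and 1 lower. DESeq2 called 2 higher and 5 lower. Egr1, an immediate early transcription factor, had 112, 107 and 133 CPM in IR_WT, against 188, 439 and 215 CPM in sham_WT. Sham_WT 2 stood far above the other 5 libraries, although the groups did not overlap. Egr1 was 2.39-fold lower (log2 fold change -1.26, SE 0.27, edgeR adjusted p = 0.035), a call lost without IR_WT 1, IR_WT 2 or IR_WT 3 (edgeR adjusted p up to 0.112) and under the library set term (edgeR adjusted p = 0.153). Arc, Npas4 and Bdnf, named after their values were seen, are an immediate early synaptic protein, an activity-dependent transcription factor and a neurotrophin. Arc had 113, 212 and 78.6 CPM in IR_WT, against 139, 445 and 33.9 CPM in sham_WT, and the sham libraries alone spanned more than 10-fold. Npas4 had 12.1, 23.1 and 23.2 CPM in IR_WT, against 27.8, 28.8 and 15.5 CPM in sham_WT, with overlap. Bdnf had 17.6, 23.98 and 22.02 CPM in IR_WT, against 27.1, 26.4 and 25.95 CPM in sham_WT, the ischemic libraries being all lower by a small margin. None of the 3 was called (edgeR adjusted p = 0.692, 0.661 and 0.704).

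C/EBP, Krüppel-like and related regulators gave 6 higher calls and no lower call among 23 tested genes (26.1% higher; 4 under the library set term, and 3 to 4 without IR_WT 2, IR_WT 3 or any 1 sham_WT library). Cebpd, which drives acute-phase genes in glia and macrophages (chromosome 16, 15887286 to 15891031), had 12.96, 9.82 and 10.1 CPM in IR_WT, against 1.84, 2.24 and 1.23 CPM in sham_WT. Its libraries separated by group, and it was 6.18-fold higher (log2 fold change 2.63, SE 0.27, edgeR adjusted p = 0.000809). Stat3, the transcription factor below the interleukin-6 family, had 160.1, 96.97 and 123 CPM in IR_WT, against 46.5, 55.1 and 54.7 CPM in sham_WT. IR_WT 1 was the highest, all ischemic libraries were above all sham libraries, and Stat3 was 2.43-fold higher (log2 fold change 1.28, SE 0.16, edgeR adjusted p = 0.00231). Socs3, its feedback inhibitor, named after its values were seen, had 28.3, 14.6 and 24.5 CPM in IR_WT, against 3.11, 4.93 and 3.53 CPM in sham_WT, 5.81-fold higher (log2 fold change 2.54, SE 0.26, edgeR adjusted p = 0.000868). Spi1, the PU.1 factor of macrophages and microglia, was 2.25-fold higher (log2 fold change 1.17, SE 0.16, edgeR adjusted p = 0.00385). Bcl3, a nuclear partner of NF-kB, was 2.75-fold higher, and its call was lost without sham_WT 1 (edgeR adjusted p = 0.05028).

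Receptors by which phagocytes sense antibodies, lectin ligands and microbial or damage molecules were often called higher. Of 22 tested Fc receptor, Tyrobp and Trem genes 13 were called higher (59.1%, against 2.54% of all genes) and none lower, and the list median was 1.27 on the log2 scale (1.41 under the library set term, where 9 were called). Without a single sham_WT library 7 or 8 were called, and 7 of the 13 were called whichever library was left out. Fcgr4, an activating receptor for immunoglobulin G (chromosome 1, 171018920 to 171029761), had 3.67, 2.201 and 3.58 CPM in IR_WT, against 0.159, 0.333 and 0.0755 CPM in sham_WT. Its groups did not overlap, and it was 16.4-fold higher (log2 fold change 4.04, SE 0.47, edgeR adjusted p = 0.00169). Lilr4b, an inhibitory immunoglobulin-like receptor with a close paralog, had 21.99, 13.2 and 14.2 CPM in IR_WT, against 1.21, 2.5 and 1.93 CPM in sham_WT, 8.73-fold higher (log2 fold change 3.13, SE 0.32, edgeR adjusted p = 0.000767). Cd300ld, an activating receptor of myeloid cells, had 1.41, 0.715 and 1.32 CPM in IR_WT, against 0, 0.111 and 0 CPM in sham_WT. With 2 sham libraries at 0 its fold is a fitted value (log2 fold change 4.85, SE 0.76, edgeR adjusted p = 0.00809). Clec7a, the beta-glucan receptor dectin-1, was 10.5-fold higher, a call lost without IR_WT 2, sham_WT 1, sham_WT 2 or sham_WT 3 (edgeR adjusted p up to 0.125).

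Another 3 genes of the list were named after their values were seen, 2 signaling chains and 1 receptor. Fcer1g, the common gamma chain of Fc receptors, had 10.7, 11.02 and 10.9 CPM in IR_WT, against 4.399, 4.52 and 3.62 CPM in sham_WT. With no overlap, it was 2.604-fold higher (log2 fold change 1.38, SE 0.13, edgeR adjusted p = 0.000515). Tyrobp, the adaptor DAP12, had 8.24, 10.9 and 8.22 CPM in IR_WT, against 4.38, 3.54 and 5.91 CPM in sham_WT, 1.98-fold higher (log2 fold change 0.99, SE 0.21, edgeR adjusted p = 0.0304). That call was lost without IR_WT 2, sham_WT 1 or sham_WT 2 (edgeR adjusted p up to 0.121) and under the library set term (edgeR adjusted p = 0.174). Trem2, a lipid receptor that signals through Tyrobp, had 10.3, 17.4 and 12.1 CPM in IR_WT, against 13.4, 11.5 and 11.2 CPM in sham_WT. Its groups overlapped, and it was not called (log2 fold change 0.14, SE 0.21, edgeR adjusted p = 0.765).

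Of 27 genes for NF-kB subunits, NF-kB inhibitors and Toll-like receptors 7 were called higher (25.9%) and none lower, and the list median was 0.39 on the log2 scale (8 called under the library set term, 4 without sham_WT 1). Cd14, the lipopolysaccharide co-receptor (chromosome 18, 36725067 to 36726798), had 28.2, 22.8 and 21.5 CPM in IR_WT, against 2.81, 1.98 and 2.85 CPM in sham_WT. The groups were wide apart, and it was 9.48-fold higher (log2 fold change 3.25, SE 0.49, edgeR adjusted p = 0.00718). Tlr2, which senses bacterial lipopeptides and damage molecules (chromosome 3, 83836272 to 83841767), had 9.997, 11.4 and 6.49 CPM in IR_WT, against 0.951, 1.63 and 1.15 CPM in sham_WT. It was 7.45-fold higher (log2 fold change 2.90, SE 0.27, edgeR adjusted p = 0.000536) without overlap. Tlr13, a mouse receptor for bacterial ribosomal RNA, had 16.4, 10.8 and 12.7 CPM in IR_WT, against 3.51, 2.796 and 3.79 CPM in sham_WT, 3.95-fold higher (log2 fold change 1.98, SE 0.23, edgeR adjusted p = 0.00154). Of 19 inflammasome, pyroptosis and necroptosis genes 3 were called higher (15.8%), 5 with no scaling factors, none under the library set term, none without IR_WT 2, and 1 without IR_WT 3 or any 1 sham_WT library. They were Il1rn, the interleukin-1 receptor antagonist (7.54-fold), the inflammasome adaptor Pycard (2.64-fold) and the necroptosis kinase Ripk3 (2.42-fold). Il1rn was lost without IR_WT 2, IR_WT 3, sham_WT 1, sham_WT 2 or sham_WT 3 (edgeR adjusted p up to 0.134), Pycard without IR_WT 2 or sham_WT 1 (edgeR adjusted p up to 0.0577) and Ripk3 without any 1 of the 6 libraries (edgeR adjusted p up to 0.167), and under the term their edgeR adjusted p was 0.089, 0.0999 and 0.0567.

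Many lysosomal genes rose, with small spread between libraries. Of 24 cathepsins and lysosomal membrane proteins 11 were called higher (45.8%) and none lower (8 under the library set term), and 8 of the 11 were called whichever library was left out. Cd68 (chromosome 11, 69664213 to 69666153) had 33.1, 34.3 and 28.6 CPM in IR_WT, against 7.59, 7.94 and 8.399 CPM in sham_WT. The groups were far apart beside their spread, and it was 4.02-fold higher (log2 fold change 2.01, SE 0.10, edgeR adjusted p = 3.13e-05). Ctsc, the cathepsin that activates serine proteases of leukocytes, had 34.2, 30.2 and 32.9 CPM in IR_WT, against 9.63, 12.1 and 10.4 CPM in sham_WT, 3.04-fold higher (log2 fold change 1.60, SE 0.11, edgeR adjusted p = 0.000118). Cd63, a tetraspanin of late endosomes, had 78.01, 65.1 and 74.03 CPM in IR_WT, against 31.4, 37.4 and 34.1 CPM in sham_WT, 2.11-fold higher (log2 fold change 1.08, SE 0.09, edgeR adjusted p = 0.000391). Neither overlapped. Gusb, the lysosomal beta-glucuronidase, was 1.899-fold higher (log2 fold change 0.93, SE 0.10, edgeR adjusted p = 0.00115). The most abundant called genes of the list were the proteases Ctsd and Ctsb. Ctsd, an aspartic protease, had 175, 218 and 144 FPKM in IR_WT, against 102, 105 and 113 FPKM in sham_WT, 1.56-fold higher (log2 fold change 0.64, SE 0.13, edgeR adjusted p = 0.0304). Ctsb, a cysteine protease, had 105, 113 and 105 FPKM in IR_WT, against 78.98, 83.1 and 81.2 FPKM in sham_WT, 1.24-fold higher (log2 fold change 0.31, SE 0.07, edgeR adjusted p = 0.0419). The Ctsd call was lost without IR_WT 2, sham_WT 1, sham_WT 2 or sham_WT 3 (edgeR adjusted p up to 0.128) and the Ctsb call without any 1 of the 6 libraries (edgeR adjusted p up to 0.159), and under the library set term their edgeR adjusted p was 0.137 and 0.216.

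Among markers of infiltrating blood cells, 4 of monocytes and 1 of neutrophils were called higher, and the medians of the 2 lists were close. Of 23 neutrophil markers 8 were expressed highly enough to test, and 1 was called higher (12.5%), Lrg1, a leucine-rich glycoprotein that endothelium also expresses (3.17-fold). Its call was lost without IR_WT 3, sham_WT 1 or sham_WT 2 (edgeR adjusted p up to 0.0919). S100a9, the defining calprotectin subunit of neutrophils, named after its values were seen, had 1.12, 1.601 and 0.604 CPM in IR_WT, against 0.773, 0.944 and 1.68 CPM in sham_WT. The groups overlapped, and it was not called (edgeR adjusted p = 0.986). In the neutrophil list 6 of 8 tested markers had a log2 fold change above 0, with a median of 0.52 (0.82 under the library set term). In the monocyte list 10 of 14 did, with a median of 0.59 (0.92 under the term). Of 14 tested monocyte and infiltrating macrophage markers 4 were called higher (28.6%, against 2.54% of all genes) and none lower (2 under the library set term, or without sham_WT 1 or sham_WT 2). Ms4a6c, a membrane protein of monocytes, had 6.797, 3.76 and 6.77 CPM in IR_WT, against 1.43, 1.78 and 1.699 CPM in sham_WT, without overlap and 3.53-fold higher (log2 fold change 1.82, SE 0.25, edgeR adjusted p = 0.00365). Ace, the angiotensin-converting enzyme, which nonclassical monocytes carry but also endothelium and intestinal epithelium, had 21.2, 26.7 and 33.3 CPM in IR_WT, against 7.21, 7.39 and 8.796 CPM in sham_WT, 3.47-fold higher (log2 fold change 1.79, SE 0.17, edgeR adjusted p = 0.000467). Gpnmb, a glycoprotein of lipid-laden phagocytes, had 6.13, 18.3 and 13.7 CPM in IR_WT, against 2.97, 1.96 and 3.49 CPM in sham_WT, 4.52-fold higher (log2 fold change 2.18, SE 0.39, edgeR adjusted p = 0.0155). Lyz2, lysozyme of myeloid cells, had 15.04, 32.2 and 19.4 CPM in IR_WT, against 5.23, 8.78 and 7.78 CPM in sham_WT, 3.06-fold higher (log2 fold change 1.61, SE 0.38, edgeR adjusted p = 0.0469). Ace, Gpnmb and Lyz2 were higher in IR_WT 2 and 3 than in IR_WT 1, as the intestine markers were, including Lyz1, the intestinal copy of lysozyme that can share reads with Lyz2. The part of those transcripts in these 3 genes was not tested beyond the library set term, with which Gpnmb and Lyz2 were not called (edgeR adjusted p = 0.152 and 0.295). Gpnmb also lost its call without sham_WT 1 or sham_WT 2 (edgeR adjusted p up to 0.0747), and Lyz2 without IR_WT 2, IR_WT 3, sham_WT 1, sham_WT 2 or sham_WT 3 (edgeR adjusted p up to 0.178). Of 6 border-associated macrophage markers only Stab1, a scavenger receptor also made by endothelium, was called. It had 36.4, 29.9 and 30.7 CPM in IR_WT, against 11.4, 13.9 and 13.5 CPM in sham_WT and was 2.51-fold higher (log2 fold change 1.33, SE 0.13, edgeR adjusted p = 0.00065).

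No T cell or B cell marker was called higher. Of 6 tested T cell markers 1 was lower, the receptor chain Trac, at 0.757, 0.5002 and 0.525 CPM in IR_WT, against 1.09, 2.19 and 1.699 CPM in sham_WT. That call was lost without IR_WT 2, IR_WT 3, sham_WT 2 or sham_WT 3 (edgeR adjusted p up to 0.127) and under the library set term (edgeR adjusted p = 0.271), and summed T cell markers were lowest in IR_WT 2 and 3. Of 11 tested B cell markers none was called, although all 11 were called lower without IR_WT 1. Of 21 genes of antigen presentation by MHC molecules none was called (7 lower without IR_WT 1). Without IR_WT 1 lower calls also appeared among Fc receptor (2), NF-kB and Toll-like receptor (3), monocyte (3), integrin (4) and interferon-stimulated (2) genes, none of which had a lower call with all 6 libraries. The class I light chain B2m had 130.4, 105 and 97.7 CPM in IR_WT, against 106, 114 and 116 CPM in sham_WT, with overlap.

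Structural genes of injured membranes and cell cortex were often called higher. Of 33 such genes 13 were called higher (39.4%) and none lower, and the list median was 0.49 on the log2 scale (0.62 under the library set term, where 15 were called). Leaving out sham_WT 1 left 5 calls and sham_WT 2 left 8. Flnc, the actin crosslinker filamin C (chromosome 6, 29433256 to 29461883), had 30.4, 11.02 and 9.63 CPM in IR_WT, against 1.03, 2.89 and 1.74 CPM in sham_WT. IR_WT 1 stood well above the other ischemic libraries, which in turn were above all sham libraries, and the gene was 8.98-fold higher (log2 fold change 3.17, SE 0.48, edgeR adjusted p = 0.00722). Lgals3, the galactose-binding lectin galectin-3, had 9.58, 13.4 and 8.27 CPM in IR_WT, against 1.86, 3.46 and 1.93 CPM in sham_WT. The groups were apart, and it was 4.304-fold higher (log2 fold change 2.11, SE 0.27, edgeR adjusted p = 0.00259). Vim, the intermediate filament vimentin, had 113, 75.8 and 89.9 CPM in IR_WT, against 13.6, 36 and 34.4 CPM in sham_WT, with sham_WT 1 below the other sham libraries, as for the meningeal markers (their part was not tested), and was 3.32-fold higher (log2 fold change 1.73, SE 0.31, edgeR adjusted p = 0.014). Plek, the phagocyte kinase substrate pleckstrin, had 89.3, 69.8 and 59.8 CPM in IR_WT, against 27.6, 23.5 and 23.8 CPM in sham_WT, 2.92-fold higher (log2 fold change 1.55, SE 0.14, edgeR adjusted p = 0.000424).

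Of 20 integrin subunits 3 were called higher (15%) and none lower (1 higher under the library set term or without any 1 sham_WT library). Itga5, a chain of the fibronectin receptor, had 13.3, 10.8 and 12.9 CPM in IR_WT, against 3.88, 5.296 and 4.45 CPM in sham_WT. Itga5 separated the groups fully and was 2.72-fold higher (log2 fold change 1.44, SE 0.19, edgeR adjusted p = 0.00278). The leukocyte chains Itgb2 and Itgam, which join into complement receptor 3, were 2-fold and 1.68-fold higher. Itgb2 was lost without sham_WT 1, sham_WT 2 or sham_WT 3 (edgeR adjusted p up to 0.0769) and Itgam without IR_WT 3, sham_WT 1, sham_WT 2 or sham_WT 3 (edgeR adjusted p up to 0.165), and their edgeR adjusted p under the term was 0.05025 and 0.184. Of 18 S100 and annexin genes 3 were higher (16.7%; 1 without sham_WT 1), all of them annexins, which bind membranes in the presence of calcium. Anxa4 had 11.6, 19.9 and 15.8 CPM in IR_WT, against 6.301, 6.22 and 6.002 CPM in sham_WT, without overlap, 2.55-fold higher (log2 fold change 1.35, SE 0.18, edgeR adjusted p = 0.00365). Anxa3 was 1.71-fold and Anxa7 1.44-fold higher, calls lost without sham_WT 1 or sham_WT 3 (edgeR adjusted p up to 0.0627) and without sham_WT 1 or sham_WT 2 (edgeR adjusted p up to 0.0747).

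A few growth factors were called, in both directions. Of 19 tested 3 were higher (15.8%, against 2.54% of all genes) and 1 lower (5.26%, against 1.52%), and 15 were not called. The list median was 0.20 on the log2 scale, and 2 were higher and 2 lower under the library set term. Csf1, the ligand that maintains microglia, had 46.9, 42.2 and 36.2 CPM in IR_WT, against 16.2, 21.2 and 18.1 CPM in sham_WT. The groups did not overlap, and it was 2.26-fold higher (log2 fold change 1.18, SE 0.12, edgeR adjusted p = 0.000967). Gdf15, a stress cytokine, had 2.39, 3.44 and 1.65 CPM in IR_WT, against 0, 0 and 0 CPM in sham_WT. All 3 sham libraries were at 0, so it was at least 43.8-fold higher, taking 3 counts per sham library as the floor (edgeR adjusted p = 0.00277). Cntf, the ciliary neurotrophic factor of astrocytes, was 3.91-fold higher at levels near 1 CPM, a call lost without IR_WT 2, IR_WT 3, sham_WT 2 or sham_WT 3 (edgeR adjusted p up to 0.0945) and under the library set term (edgeR adjusted p = 0.106). Vegfa, the vascular endothelial growth factor (chromosome 17, 46016993 to 46032369), had 49.1, 63.5 and 62.1 CPM in IR_WT, against 96.9, 112 and 87.1 CPM in sham_WT. Every ischemic library lay below every sham library, and Vegfa was 1.69-fold lower (log2 fold change -0.76, SE 0.12, edgeR adjusted p = 0.00931).

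Vegfa was also 1 of 3 called genes, 1 higher and 2 lower, among 36 glycolytic and hypoxia-inducible genes (8.33%, against 4.06% of all genes), whose list median on the log2 scale was 0.04. Hk3, a hexokinase of leukocytes, had 7.45, 8.09 and 5.88 CPM in IR_WT, against 1.66, 1.46 and 1.13 CPM in sham_WT. Hk3 did not overlap and was 5.03-fold higher (log2 fold change 2.33, SE 0.21, edgeR adjusted p = 0.000424). Ndrg1, a hypoxia-responsive gene that oligodendrocytes express strongly, was 1.603-fold lower, a call lost without IR_WT 3 or sham_WT 1 (edgeR adjusted p up to 0.05034) and under the library set term (edgeR adjusted p = 0.104). Another 4 well-known members were chosen after their values were seen. Ldha, lactate dehydrogenase A, had 179, 218 and 272 CPM in IR_WT, against 234, 218 and 251 CPM in sham_WT, and Pgk1, phosphoglycerate kinase, had 275, 339 and 373 CPM in IR_WT, against 341, 296 and 352 CPM in sham_WT. Both overlapped fully between the groups. Slc2a1, the glucose transporter of the blood-brain barrier, had 103, 88.2 and 126 CPM in IR_WT, against 59.7, 73.6 and 83.4 CPM in sham_WT, with no overlap. Hif1a, the hypoxia-inducible factor itself, had 114, 85.5 and 89.9 CPM in IR_WT, against 82.2, 80.4 and 84.2 CPM in sham_WT, with no overlap but a small margin. None of these 4 was called (edgeR adjusted p = 0.825, 0.997, 0.105 and 0.339).

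Several genes of heme, iron and redox defense rose. Of 22 heme and iron genes 7 were called higher (31.8%) and 1 lower, and the list median was 0.52 on the log2 scale. Under the library set term 4 were called higher and none lower (4 higher also without any 1 sham_WT library). Hmox1, the heme oxygenase that degrades heme to iron, biliverdin and carbon monoxide (chromosome 8, 75093621 to 75100589), had 48.4, 40.6 and 57.2 CPM in IR_WT, against 4.64, 6.999 and 6.36 CPM in sham_WT. The groups were wide apart, and it was 8.12-fold higher (log2 fold change 3.02, SE 0.22, edgeR adjusted p = 0.000154). Ftl1, the ferritin light chain, had 139, 163 and 129.6 FPKM in IR_WT, against 76.5, 80.03 and 92.4 FPKM in sham_WT, 1.62-fold higher (log2 fold change 0.70, SE 0.10, edgeR adjusted p = 0.00445). It did not overlap, but processed copies of the gene can share its reads. Lcn2, an iron-siderophore binding acute-phase protein, had 17.4, 6.46 and 20.3 CPM in IR_WT, against 0.812, 0.537 and 1.08 CPM in sham_WT, with IR_WT 2 the lowest ischemic library, and was 18.2-fold higher (log2 fold change 4.18, SE 0.60, edgeR adjusted p = 0.00537). Slc11a1, a phagosomal metal transporter, and the metalloreductase Steap4 were 2.75-fold and 4.48-fold higher, and Slc40a1, the iron exporter ferroportin, was 2.22-fold lower. Slc11a1 was lost without IR_WT 2, IR_WT 3, sham_WT 1, sham_WT 2 or sham_WT 3 (edgeR adjusted p up to 0.109), Steap4 without IR_WT 1, IR_WT 3, sham_WT 1, sham_WT 2 or sham_WT 3 (edgeR adjusted p up to 0.158) and Slc40a1 without IR_WT 2, IR_WT 3, sham_WT 1, sham_WT 2 or sham_WT 3 (edgeR adjusted p up to 0.122). With the term their edgeR adjusted p was 0.1, 0.0636 and 0.149.

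Of 27 NRF2, glutathione and metallothionein genes 8 were called higher (29.6%) and none lower (5 under the library set term, 4 without sham_WT 1 or sham_WT 2, and 5 without IR_WT 3 or sham_WT 3). Srxn1, sulfiredoxin, had 185, 183 and 166 CPM in IR_WT, against 103, 93.7 and 97.9 CPM in sham_WT. No ischemic library came down to the sham range, and it was 1.81-fold higher (log2 fold change 0.86, SE 0.09, edgeR adjusted p = 0.000809). Txnrd1, thioredoxin reductase, had 107, 98.05 and 86.2 CPM in IR_WT, against 44.99, 55.03 and 55.3 CPM in sham_WT, 1.88-fold higher (log2 fold change 0.91, SE 0.14, edgeR adjusted p = 0.00721). Slc7a11, the cystine importer that feeds glutathione synthesis, had 61.96, 58.2 and 55.8 CPM in IR_WT, against 26.8, 27.9 and 29.1 CPM in sham_WT, 2.1-fold higher (log2 fold change 1.07, SE 0.17, edgeR adjusted p = 0.00822). That call was lost without sham_WT 1 (edgeR adjusted p = 0.05028). Osgin1, an oxidative stress growth inhibitor, was 6.98-fold higher and was lost without sham_WT 2 (edgeR adjusted p = 0.0667).

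Among 23 heat shock proteins and cochaperones 6 were called higher (26.1%) and none lower, and the list median was 0.75 on the log2 scale (4 under the library set term, 3 without sham_WT 1). Hspa1a had 199, 393 and 91.8 CPM in IR_WT, against 10.6, 10.4 and 13.6 CPM in sham_WT. IR_WT 2 was the highest and IR_WT 3 the lowest of the ischemic libraries, a wide span that did not reach the sham libraries, and the gene was 19.7-fold higher (log2 fold change 4.30, SE 0.64, edgeR adjusted p = 0.00662). Bag3, a cochaperone of HSP70 in selective autophagy, had 18.2, 17.7 and 12.2 CPM in IR_WT, against 5.88, 6.93 and 6.98 CPM in sham_WT, 2.43-fold higher (log2 fold change 1.28, SE 0.17, edgeR adjusted p = 0.00346). Hspb1, the small heat shock protein HSP27, was 7.28-fold higher, a call lost without sham_WT 1 (edgeR adjusted p = 0.0736) and under the library set term (edgeR adjusted p = 0.0591). Of 24 p53 target and apoptosis genes 4 were higher (16.7%, against 2.54% of all genes, but 1 without sham_WT 1 or sham_WT 2, a share near that of all genes, and 2 without IR_WT 2 or sham_WT 3). Fas, a death receptor, had 4.59, 4.42 and 4.99 CPM in IR_WT, against 1.704, 1.5 and 2.095 CPM in sham_WT, without overlap, 2.64-fold higher (log2 fold change 1.40, SE 0.21, edgeR adjusted p = 0.00613). Cdkn1a, the cell cycle inhibitor p21, had 68.4, 71.4 and 43.1 CPM in IR_WT, against 12.5, 20.4 and 24.01 CPM in sham_WT, 3.21-fold higher (log2 fold change 1.68, SE 0.31, edgeR adjusted p = 0.0176). Eda2r, a p53-induced receptor, was 8.92-fold and Pmaip1, the BH3-only protein NOXA, 3.33-fold higher. Calls were lost for Cdkn1a without IR_WT 2, sham_WT 1 or sham_WT 2 (edgeR adjusted p up to 0.0732), for Eda2r without sham_WT 1, sham_WT 2 or sham_WT 3 (edgeR adjusted p up to 0.0784) and for Pmaip1 without IR_WT 1, IR_WT 2, sham_WT 1, sham_WT 2 or sham_WT 3 (edgeR adjusted p up to 0.157), and under the term also for Pmaip1 (edgeR adjusted p = 0.148).

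A few genes of lipid handling and of prostaglandin and leukotriene synthesis were called, in both directions. Of 29 lipid handling genes 4 were called higher (13.8%) and 1 lower. Plin2, the coat protein of lipid droplets (chromosome 4, 86648386 to 86670060), had 31.99, 20.3 and 20.2 CPM in IR_WT, against 6.102, 4.703 and 5.89 CPM in sham_WT. Plin2 separated the groups fully and was 4.34-fold higher (log2 fold change 2.12, SE 0.19, edgeR adjusted p = 0.000394). Lpl, lipoprotein lipase, had 57.7, 50.8 and 38.1 CPM in IR_WT, against 13.5, 15.1 and 18.2 CPM in sham_WT, 3.13-fold higher (log2 fold change 1.65, SE 0.17, edgeR adjusted p = 0.000924). Apod, a lipocalin that binds arachidonate, was 2.21-fold higher and highest in IR_WT 1, a call lost without IR_WT 3, sham_WT 1, sham_WT 2 or sham_WT 3 (edgeR adjusted p up to 0.116). Acsl3, an acyl-CoA synthetase, was 1.49-fold lower, a call lost without sham_WT 1 (edgeR adjusted p = 0.0574) and under the library set term (edgeR adjusted p = 0.0607). Of 20 prostaglandin and leukotriene genes 3 were higher (15%) and 1 lower (none lower with no scaling factors). Ptgs2, the inducible cyclooxygenase (chromosome 1, 150100031 to 150108227), had 31.8, 28.5 and 34.2 CPM in IR_WT, against 11.4, 10.8 and 12.3 CPM in sham_WT. Its groups were apart, and it was 2.73-fold higher (log2 fold change 1.45, SE 0.17, edgeR adjusted p = 0.00201). Pla2g4a, the phospholipase that frees arachidonate from membranes, had 11.5, 9.32 and 8.25 CPM in IR_WT, against 3.37, 3.09 and 3.49 CPM in sham_WT, 2.92-fold higher (log2 fold change 1.55, SE 0.16, edgeR adjusted p = 0.000924). Alox5, the 5-lipoxygenase of leukocytes, had 2.06, 1.79 and 3.498 CPM in IR_WT, against 0.277, 0.667 and 0.491 CPM in sham_WT, 5.09-fold higher (log2 fold change 2.35, SE 0.39, edgeR adjusted p = 0.0107), and was not called under the library set term (edgeR adjusted p = 0.0616). The lower gene was Pla2g7, the platelet-activating factor acetylhydrolase, 1.44-fold lower, whose call was lost without any 1 of the 6 libraries (edgeR adjusted p up to 0.137) and under the term (edgeR adjusted p = 0.0787).

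Among genes of blood vessels, coagulation genes gave higher calls and most barrier genes none. Of 17 plasminogen activation and coagulation genes 5 were higher (29.4%) and none lower, and the list median was 0.52 on the log2 scale (4 under the library set term, 1 without sham_WT 1, 3 without sham_WT 2 or sham_WT 3). Vwf, the von Willebrand factor stored by endothelium (chromosome 6, 125546774 to 125686679), had 64.2, 46.1 and 66.3 CPM in IR_WT, against 9.07, 13.2 and 14.1 CPM in sham_WT. All ischemic libraries were above 3 times the highest sham library, and Vwf was 4.85-fold higher (log2 fold change 2.28, SE 0.20, edgeR adjusted p = 0.000394). Serping1, the C1 inhibitor, had 6.54, 3.77 and 7.52 CPM in IR_WT, against 1.25, 1.796 and 1.66 CPM in sham_WT, 3.78-fold higher (log2 fold change 1.92, SE 0.30, edgeR adjusted p = 0.00822). Plaur, the urokinase receptor, was called as well, but was named after its values were seen, at 6.797, 4.19 and 3.64 CPM in IR_WT, against 1.605, 2.13 and 1.79 CPM in sham_WT, 2.64-fold higher (log2 fold change 1.40, SE 0.27, edgeR adjusted p = 0.0225). F2rl2, the thrombin receptor PAR3, was 2.88-fold higher. Calls were lost for Serping1 without sham_WT 1 (edgeR adjusted p = 0.05028), Plaur without sham_WT 1, sham_WT 2 or sham_WT 3 (edgeR adjusted p up to 0.108) and F2rl2 without sham_WT 1 or sham_WT 2 (edgeR adjusted p up to 0.0709), and for F2rl2 under the term (edgeR adjusted p = 0.0787).

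Besides Vwf, the 26 blood-brain barrier genes included 1 higher and 1 lower call, Ly6c1 (1.52-fold higher) and Itm2a (2.18-fold lower), both of capillary endothelium. Ly6c1 was lost without IR_WT 1, IR_WT 3, sham_WT 1, sham_WT 2 or sham_WT 3 (edgeR adjusted p up to 0.161) and Itm2a without any 1 of the 6 libraries (edgeR adjusted p up to 0.113), and under the library set term neither was called (edgeR adjusted p = 0.0517 and 0.0598). The junction protein Cldn5, named after its values were seen, had 15.7, 13.6 and 16.5 CPM in IR_WT, against 16.8, 18.7 and 21.2 CPM in sham_WT. All ischemic libraries lay below all sham libraries, and it was not called (log2 fold change -0.31, SE 0.15, edgeR adjusted p = 0.311). Of 15 pericyte and smooth muscle markers 2 were called higher (13.3%; none without sham_WT 1) and 1 lower. Rgs5, a G protein regulator of pericytes, had 79.7, 78.98 and 76.6 CPM in IR_WT, against 127, 137 and 112 CPM in sham_WT. Rgs5 did not overlap and was 1.599-fold lower (log2 fold change -0.68, SE 0.10, edgeR adjusted p = 0.00622), but not called under the term (edgeR adjusted p = 0.0629). Des, the filament desmin, was 2.27-fold higher, a call lost without sham_WT 1 (edgeR adjusted p = 0.0547) and under the term (edgeR adjusted p = 0.0908). Anpep, an aminopeptidase of pericytes and intestinal epithelium, had 2.84, 55.4 and 53.9 CPM in IR_WT, against 2.04, 2.26 and 2.43 CPM in sham_WT. It followed the intestine markers by library, and under the library set term its log2 fold change was 0.34 in place of 4.06 (edgeR adjusted p = 0.803 in place of 0.0392). Its call was also lost without IR_WT 2, IR_WT 3, sham_WT 1, sham_WT 2 or sham_WT 3 (edgeR adjusted p up to 0.157).

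Interferon-stimulated genes were led by the antiviral membrane proteins of the Ifitm family. Of 36 such genes 4 were called higher (11.1%, against 2.54% of all genes) and none lower, and the list median was 0.41 on the log2 scale (0.72 under the library set term, where 5 were called). The list median differed between the ischemic libraries, and it was highest in IR_WT 1 and below 0 in IR_WT 3. Without sham_WT 1 or sham_WT 2 there were 2 calls, and without IR_WT 3 there were 7. Ifitm3 had 15.7, 14.1 and 14.5 CPM in IR_WT, against 4.46, 5.296 and 3.79 CPM in sham_WT. Its libraries separated by group, and it was 3.27-fold higher (log2 fold change 1.71, SE 0.15, edgeR adjusted p = 0.000416). Ifitm1 had 3.06, 2.54 and 3.58 CPM in IR_WT, against 0.416, 0.518 and 0.604 CPM in sham_WT, 5.94-fold higher (log2 fold change 2.57, SE 0.29, edgeR adjusted p = 0.00139). Ifitm2 was 2.35-fold and Irf9, a subunit of the interferon-activated complex ISGF3, 1.64-fold higher, calls lost without sham_WT 1 or sham_WT 2 (edgeR adjusted p up to 0.0732) and without IR_WT 1, IR_WT 2, sham_WT 1, sham_WT 2 or sham_WT 3 (edgeR adjusted p up to 0.15). The Ifitm genes are close paralogs, so reads may be split among them.

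Cell cycle, cholesterol synthesis and proteasome genes were called in shares near the 4.06% of all genes. Of 30 cell cycle genes only Cdkn1a was called (3.33%), the share being 4.35% for cholesterol synthesis and 2.63% for the proteasome. Of 23 cholesterol synthesis genes 1 was called lower, Hmgcs1, the synthase of HMG-CoA (1.39-fold, lost without sham_WT 2 (edgeR adjusted p = 0.0574)), and 19 of 23 had a log2 fold change below 0. Of 38 proteasome subunits and regulators 37 had a log2 fold change above 0, with a median of 0.16, and 1 was called, the assembly chaperone Psmd5 at 54.7, 46.4 and 49.1 CPM in IR_WT, against 38.95, 37.9 and 39.1 CPM in sham_WT. It was 1.295-fold higher (log2 fold change 0.37, SE 0.08, edgeR adjusted p = 0.0332), lost without IR_WT 1, IR_WT 3, sham_WT 1, sham_WT 2 or sham_WT 3 (edgeR adjusted p up to 0.116). Of 33 unfolded protein and integrated stress response genes 4 were higher (12.1%, against 2.54% of all genes) and 1 lower (none lower with no scaling factors, 1 higher without sham_WT 1, and 2 without IR_WT 3 or under the library set term). They included Slc3a2, the partner chain of cystine and leucine transporters (1.54-fold higher), the sensor Atf6 (1.26-fold higher) and the factor Atf4 (1.303-fold lower). All 3 were lost in refits, Slc3a2 without IR_WT 3, sham_WT 1 or sham_WT 3 (edgeR adjusted p up to 0.0747), Atf6 without IR_WT 1, IR_WT 3, sham_WT 1, sham_WT 2 or sham_WT 3 (edgeR adjusted p up to 0.121) and Atf4 without any 1 of the 6 libraries (edgeR adjusted p up to 0.157), with edgeR adjusted p = 0.0837, 0.168 and 0.203 under the term. None of 19 circadian genes was called.

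**Figure D5:**
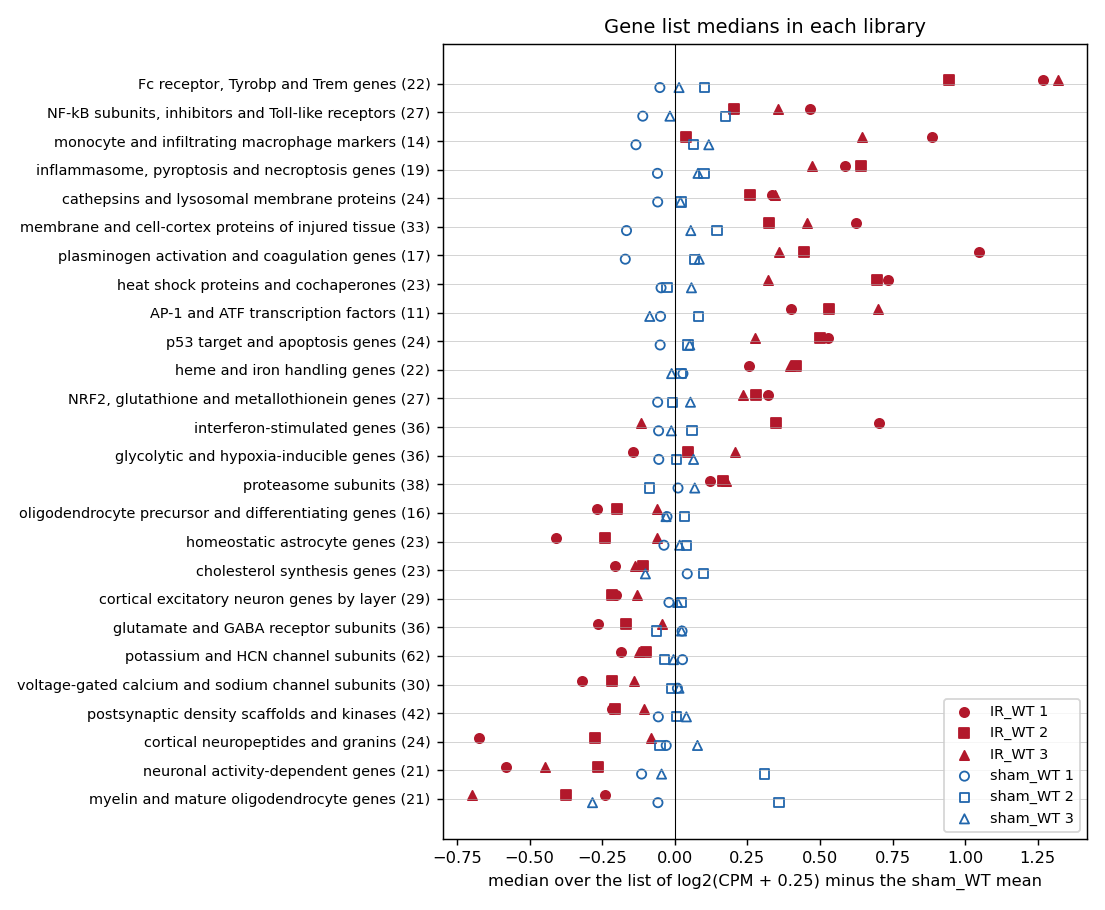
For 26 gene lists (number of tested genes in parentheses), the median over the list of log2(CPM + 0.25) minus the gene's sham_WT mean, 1 point per library, filled for IR_WT and open for sham_WT. Fc receptor, lysosomal and heat shock lists lie to the right in all 3 IR_WT libraries, synaptic, channel and myelin lists lie slightly to the left, and the interferon and monocyte lists differ between the IR_WT libraries.

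Neuronal channel, receptor and synaptic genes were called lower in larger shares than the 1.52% of all genes, by small folds, and these counts depended on the scaling and on single libraries. That baseline is not matched for abundance. Of all tested genes 4.13% were called lower between 100 and 300 CPM, and 7.66% above 300 CPM. Whether these lists exceed genes of equal abundance was not tested. With no scaling factors the lower calls were 2 among potassium channels, 2 among calcium and sodium channels, 1 among glutamate and GABA receptors and 3 at the postsynaptic density. Of 62 potassium and HCN channel subunits 7 were called lower (11.3%) and 1 higher, and the list median was -0.15 on the log2 scale, with 44 genes below 0. Under the library set term none was called. Leaving out IR_WT 2 left 1 lower call, any 1 sham_WT library left 2, and IR_WT 3 left 3. Kcnt2, a sodium-activated potassium channel, had 36.1, 33.4 and 35.5 CPM in IR_WT, against 68.8, 54.6 and 51.1 CPM in sham_WT. With no overlap, it was 1.66-fold lower (log2 fold change -0.73, SE 0.12, edgeR adjusted p = 0.0114), with edgeR adjusted p = 0.102 under the term. The other lower ones with the largest changes were Kcnh7, Kcnh4 and Kcnh3, of the ether-a-go-go related and ELK families, 1.51-fold, 1.46-fold and 1.45-fold lower, and the higher one was Kcna5 (3.09-fold). Kcnh7 was lost without IR_WT 2 (edgeR adjusted p = 0.0524), Kcnh4 without IR_WT 2, IR_WT 3, sham_WT 1, sham_WT 2 or sham_WT 3 (edgeR adjusted p up to 0.151), Kcnh3 without IR_WT 1, IR_WT 2, sham_WT 1, sham_WT 2 or sham_WT 3 (edgeR adjusted p up to 0.142) and Kcna5 without IR_WT 2, IR_WT 3, sham_WT 1 or sham_WT 2 (edgeR adjusted p up to 0.0769). Their edgeR adjusted p under the term was 0.107, 0.261, 0.17 and 0.139.

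Of 30 voltage-gated calcium and sodium channel subunits 7 were called lower (23.3%, against 1.52% of all genes) and 2 higher, and the list median was -0.21 on the log2 scale (1 and 2 under the library set term). The lower calls were 2 without any 1 sham_WT library, 3 without IR_WT 2 or IR_WT 3, and 4 without IR_WT 1. Cacna2d3, an auxiliary alpha-2-delta subunit, had 81.4, 85.9 and 72.4 CPM in IR_WT, against 144, 126 and 129.7 CPM in sham_WT. The groups were apart, and it was 1.66-fold lower (log2 fold change -0.73, SE 0.09, edgeR adjusted p = 0.0021). Cacnb3, a beta subunit, had 195, 185 and 182 CPM in IR_WT, against 244, 257 and 264 CPM in sham_WT, 1.36-fold lower (log2 fold change -0.45, SE 0.07, edgeR adjusted p = 0.00721), with edgeR adjusted p = 0.0995 under the term. Cacng5, an auxiliary subunit of AMPA receptors, ran the other way at 10.4, 8.08 and 11.05 CPM in IR_WT, against 4.64, 5.63 and 4.398 CPM in sham_WT, 2.01-fold higher (log2 fold change 1.01, SE 0.16, edgeR adjusted p = 0.00809). The other higher one was Cacnb2 (1.45-fold), lost without IR_WT 3, sham_WT 1, sham_WT 2 or sham_WT 3 (edgeR adjusted p up to 0.102). Of 36 glutamate and GABA receptor subunits 3 were lower (8.33%) and none higher, and 28 had a log2 fold change below 0. The lower calls were 1 under the library set term or without IR_WT 2, sham_WT 1 or sham_WT 3. Gabrd, the delta subunit of extrasynaptic GABA-A receptors (chromosome 4, 155384980 to 155398112), had 48.1, 42.6 and 44.2 CPM in IR_WT, against 76.5, 76.2 and 74.9 CPM in sham_WT. Its ischemic libraries lay within a narrow range below all sham libraries, and it was 1.69-fold lower (log2 fold change -0.76, SE 0.11, edgeR adjusted p = 0.00707), with edgeR adjusted p = 0.0853 under the term. Gria4, an AMPA receptor subunit, was 1.36-fold lower, a call lost without IR_WT 1, IR_WT 2, sham_WT 1, sham_WT 2 or sham_WT 3 (edgeR adjusted p up to 0.124).

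At the postsynaptic density, 4 of 42 scaffolds and kinases were lower (9.52%, against 1.52% of all genes) and none higher, with 34 below 0 (1 without IR_WT 2, and 2 without any 1 sham_WT library). Besides Camkk2 they were Camk4, the nuclear CaM kinase that Camkk2 activates, at 30.7, 25.1 and 27.1 CPM in IR_WT, against 49.4, 42.3 and 44.1 CPM in sham_WT, the kinase inhibitor Camk2n1 and the scaffold Shank3. Camk4 did not overlap between the groups and was 1.64-fold lower (log2 fold change -0.71, SE 0.13, edgeR adjusted p = 0.0149), a call lost without IR_WT 2 or sham_WT 1 (edgeR adjusted p up to 0.0783) and under the library set term (edgeR adjusted p = 0.163). Camk2n1 had 228, 237 and 265 FPKM in IR_WT, against 400.4, 345 and 366 FPKM in sham_WT, 1.62-fold lower (log2 fold change -0.70, SE 0.15, edgeR adjusted p = 0.0311), lost without IR_WT 1, IR_WT 2, sham_WT 1, sham_WT 2 or sham_WT 3 (edgeR adjusted p up to 0.127) and under the term (edgeR adjusted p = 0.113). Shank3 was 1.38-fold lower, lost without any 1 of the 6 libraries (edgeR adjusted p up to 0.103) and under the term (edgeR adjusted p = 0.055). On the presynaptic side no list was counted, and 2 genes named after their values were seen stood nearly as far apart. They do not speak for presynaptic genes as a set. Slc17a7 and Snap25, both presynaptic and among the fixed cortex markers, were not called (edgeR adjusted p = 0.81 and 0.351). Unc13a, which primes synaptic vesicles for release, had 254, 316 and 304 CPM in IR_WT, against 513, 527 and 502 CPM in sham_WT. Unc13a separated the groups fully and was 1.76-fold lower (log2 fold change -0.82, SE 0.11, edgeR adjusted p = 0.00277). Rph3a, a Rab3 effector on those vesicles, had 209, 265 and 299 CPM in IR_WT, against 420.2, 473 and 445 CPM in sham_WT, 1.73-fold lower (log2 fold change -0.79, SE 0.14, edgeR adjusted p = 0.0159), lost without IR_WT 2, sham_WT 1, sham_WT 2 or sham_WT 3 (edgeR adjusted p up to 0.0676).

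Identity genes of neuron classes had lower calls in larger shares than the 1.52% of all genes, but with most 1-library refits leaving 0 or 1 call per list. Here too the baseline is not matched for abundance. Of 29 excitatory neuron genes by layer 3 were lower (10.3%; 1 without IR_WT 2, IR_WT 3 or any 1 sham_WT library). Besides Pcp4 they were Rspo1, a Wnt enhancer (2.49-fold, lost without any 1 of the 6 libraries (edgeR adjusted p up to 0.167)), and Ntng2, an axonal adhesion protein (2.14-fold, lost without IR_WT 2, IR_WT 3, sham_WT 1, sham_WT 2 or sham_WT 3 (edgeR adjusted p up to 0.127)), with edgeR adjusted p = 0.223 and 0.278 under the library set term. Of 25 interneuron genes 3 were lower (12%) and 1 higher (1 lower with no scaling factors, and 0 or 1 lower in each refit with 1 library left out). Lamp5, a membrane protein of neurogliaform cells, had 136, 139 and 172 CPM in IR_WT, against 294, 270.3 and 303 CPM in sham_WT, with no overlap, 1.94-fold lower (log2 fold change -0.96, SE 0.21, edgeR adjusted p = 0.0396). It was lost without any 1 of the 6 libraries (edgeR adjusted p up to 0.129) and under the term (edgeR adjusted p = 0.126). Of 24 neuropeptides and granins 2 were lower (8.33%; 1 with no scaling factors, 2 without IR_WT 1 and none in the other refits with 1 library left out), with 19 below 0 and a median log2 fold change of -0.39. They were Cort, cortistatin (2.74-fold, lost without IR_WT 2, IR_WT 3, sham_WT 1, sham_WT 2 or sham_WT 3 (edgeR adjusted p up to 0.109)), and Scg2, secretogranin II (1.48-fold, lost without any 1 of the 6 libraries (edgeR adjusted p up to 0.154)), and under the term their edgeR adjusted p was 0.176 and 0.0668. Pvalb, the calcium buffer of fast-spiking interneurons, had 37.6, 47.5 and 39.7 CPM in IR_WT, against 70.5, 57.96 and 63 CPM in sham_WT, without overlap, and was not called (log2 fold change -0.62, SE 0.24, edgeR adjusted p = 0.199).

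Some mature oligodendrocyte genes were lower, and those of precursors and resting astrocytes were not called. Of 21 myelin genes 7 were lower (33.3%, against 1.52% of all genes) and none higher, and the list median was -0.58 on the log2 scale (-0.30 under the library set term, where 1 was called), and 3 of the 7 were called whichever library was left out. Without IR_WT 2, IR_WT 3, sham_WT 1 or sham_WT 2 the count was 3. By library the medians of this list overlapped, at -0.24 in IR_WT 1 and -0.28 in sham_WT 3. Mog, a myelin surface glycoprotein, had 24.3, 23.3 and 19.7 CPM in IR_WT, against 43.3, 49.7 and 36.6 CPM in sham_WT. Mog did not overlap and was 1.92-fold lower (log2 fold change -0.94, SE 0.13, edgeR adjusted p = 0.00445), with edgeR adjusted p = 0.0636 under the term. Sham_WT 2 was the highest library. Mbp, myelin basic protein, had 143, 143 and 124 FPKM in IR_WT, against 193, 265 and 175 FPKM in sham_WT, 1.65-fold lower (log2 fold change -0.72, SE 0.15, edgeR adjusted p = 0.0298), a call lost without IR_WT 2, IR_WT 3, sham_WT 1 or sham_WT 2 (edgeR adjusted p up to 0.0824) and under the term (edgeR adjusted p = 0.189). None of 16 oligodendrocyte precursor genes and none of 23 homeostatic astrocyte genes was called. Their list medians were -0.15 and -0.24 on the log2 scale, with 11 of 16 and 18 of 23 genes below 0. Glul, glutamine synthetase of astrocytes, had 1098, 1174 and 1218 CPM in IR_WT, against 1519, 1592 and 1565 CPM in sham_WT, with all ischemic libraries below all sham libraries and was not called (log2 fold change -0.42, SE 0.18, edgeR adjusted p = 0.24).

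On the FPKM scale, the most abundant called higher genes were Ctsd, Ftl1, Spp1, Gfap, Ctsb and Hspa1b, and among the most abundant lower ones were Camk2n1, Stmn1, Mbp and Nrsn1. Spp1, osteopontin of phagocytes, had 200.2, 117 and 75.6 FPKM in IR_WT, against 3.96, 5.51 and 6.195 FPKM in sham_WT, and Gfap had 128, 104 and 119.5 FPKM in IR_WT, against 7.29, 14.3 and 10.03 FPKM in sham_WT. Both were called higher, 23.4-fold and 10.4-fold. Stmn1, the microtubule regulator stathmin, had 127, 181 and 173 FPKM in IR_WT, against 231, 217 and 228 FPKM in sham_WT, 1.503-fold lower (log2 fold change -0.59, SE 0.13, edgeR adjusted p = 0.0419), lost without IR_WT 2, IR_WT 3, sham_WT 1, sham_WT 2 or sham_WT 3 (edgeR adjusted p up to 0.147). Nrsn1, a vesicle membrane protein of neurons, had 107, 123 and 137 FPKM in IR_WT, against 182, 156 and 166 FPKM in sham_WT, 1.46-fold lower (log2 fold change -0.55, SE 0.12, edgeR adjusted p = 0.0357), lost without IR_WT 1, IR_WT 2, sham_WT 1, sham_WT 2 or sham_WT 3 (edgeR adjusted p up to 0.142) and under the library set term (edgeR adjusted p = 0.0516). Of the 195 genes chosen by rule, 48 overlap another annotated gene with a mean of at least 10 counts, among them Pltp, Hs3st4, Col5a1, P2ry12, Ch25h, Spp1, Cebpd, Stat3, Hk3, Plek, Stab1, Txnrd1, Ctsb and Cacna2d3. The sources used here do not state whether counting used the strand, so the levels of such genes are less certain.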

How the data were processed

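The 6 libraries were made from cortical RNA with poly(A) selection, strand marking and molecular identifiers and read in pairs on a NovaSeq, according to the labels' protocols. Per the file headers, the authors deposited 1 table with a raw count and an FPKM value for each gene in each library. The counts are whole numbers, and the deposited FPKM values are relative to gene length and mapped fragments. The submitters' processing notes list HISAT2 2.0.4, StringTie 1.3.4d, cutadapt 1.9, edgeR, DESeq2 and UMI-tools without roles or order. The sources used here do not say whether molecules or reads were counted. The notes name GRCh38, a human build. GENCODE M21, a mouse annotation on GRCm38, holds 37764 of the 37893 identifiers, 92.0% of these at identical coordinates. Where 78 symbols were shared, the gene with the most counts was used.

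Genes with at least 0.5 FPKM in 3 of 9 libraries were tested on the deposited counts with edgeR 4.0.16 (glmQLFit, glmQLFTest, TMM factors of 0.948 to 1.03 in the 6 libraries), in 1 model of all 9 libraries with group means and 6 residual degrees of freedom, as contrast IR_WT minus sham_WT. Calls are at a Benjamini-Hochberg adjusted p under 0.05, and the standard error was computed from the test's F. Alternatives were DESeq2 1.42.0, limma 3.58.1 on log2(FPKM + 1), other scalings and filters, the 6 libraries alone, a replicate block, a library set term and each library left out. The set term was planned at 10 summed CPM of intestine markers, which every library passed, since Mttp is measured in all of them. A limit of 100 CPM was chosen after seeing the data. In data simulated from each gene's mean over all 9 libraries (17247 genes), edgeR recovered 60 of 100 2-fold changes and 85 of 100 4-fold changes and made 6 false calls. Libraries were drawn independently, without the division by markers of other tissues, so these numbers do not cover calls that follow it. No library repeats another, since chi-square per degree of freedom was 21.9 to 65.6 within groups. The replicate numbers did not pair the samples.

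The 57 gene lists and the groups described were chosen with earlier results of these data known, so a list's count is no independent support. Named by rule, with no overlap between groups and no clone names, were the 15 largest changes each way among called genes of at least 5 CPM that were also called with the library set term, the 6 most abundant called genes each way, and up to 4 called members each way per list. Where none was called, the 2 most abundant members could be named. Other genes are said to have been named after their values were seen. Not all lists are described, and a few genes met by the rule are not reported here. Promoters were taken from RefSeq (GRCm38.p6), the first listed start of each gene.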

Additional observations from a re-analysis of the deposited data

How the results depend on the processing

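Of 701 calls by edgeR, DESeq2 made 1664 (962 higher and 702 lower, 700 of the 701 among them), no filter on low values left 418 (310 and 108), and the library set term, whose limit of 100 CPM was chosen after seeing the data, left 407 (293 and 114). With no scaling factors the lower calls were 155, and by limma on log2(FPKM + 1) they were 143. Leaving out 1 library gave 242 to 996 calls, 179 to 551 higher and 63 to 445 lower. Median-ratio factors (695), edgeR's own filter (652), the 6 libraries alone (647), no scaling factors (746) and limma (588) stayed within 1.5 times the total. With the replicate number as a block 410 genes were called (282 higher and 128 lower). The numbers did not pair the samples: same-numbered libraries correlated at -0.0864, -0.000622 and 0.0251 in their deviations from the group means, and not every library correlated best with its own number. Of 215 genes chosen to be named, none changed its direction of call in any setting, and 208 under DESeq2, 212 with median-ratio factors, 159 with the block, 158 without a filter and 145 with the library set term stayed on the same side of the threshold. For called genes named by rule the groups did not overlap by choice, so a kept direction was largely fixed in advance. The planned set term at 10 CPM could not be fitted. Fewer samples in a refit lower its power by construction. Depth limits genes below about 1 CPM, and with 3 mice per group simulated 2-fold changes were recovered in 60 of 100 cases, without library sets in the simulation.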
